A study of Mus musculus with 8 samples.

Results

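Interleukin-22 (IL-22) receptor and STAT3 signalling was followed in mouse Paneth cells through 10 genes: Il22ra1, Il10rb, Il6st, Il6ra, Jak1, Tyk2, Stat3, Socs3, Fut2 and Il18. They were chosen by name as members of this pathway, but with earlier results of these data known. They are 10 of the 55414 gene identifiers counted. Paneth cells were collected by FACS from a single cell suspension of the small intestine of C57BL/6J mice, which had free access either to standard chow (control, 4 mice) or to zinc depleted chow (zinc deficient, 4 mice) for 7 weeks. Strain, sort and time on the diet were shared by both groups, and the zinc content of the chows, the age of the mice and the sex of each mouse were not stated in the sources at hand. Each sample was 1 RNA-seq library and is counted here as 1 mouse. The workflow of the study pooled sorted cells, and the paper describes its sequenced samples as coming from individual mice.

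IL-22 is made mainly by lymphocytes and binds a receptor of IL22RA1, which is found on epithelial cells, and the widely shared chain IL10RB. IL-6 and its relatives signal through GP130, the product of Il6st, with IL6RA as the chain that binds IL-6 itself. The kinases JAK1 and TYK2 attached to these receptors phosphorylate STAT3, which enters the nucleus and activates genes that include its own feedback inhibitor SOCS3. In the intestinal epithelium, IL-22 is known for inducing antimicrobial lectins of the REG3 family, for fucosylation of surface glycans by FUT2 and for expression of the cytokine IL-18.

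STAT3 binds the palindrome TTCNNNGAA, which was searched, on both strands at once because it is its own reverse complement, in the 250 bases before the annotated start of each gene in RefSeq promoters of GRCm38.p6. Of 32851 promoters, 2306 (7.02%) held it. A promoter was found for 8 of the 10 members (Il10rb and Fut2 were not matched), and 1 of them, Socs3, held the motif. The same search was made for Reg3b and Reg3g, the genes of the pathway whose diet difference is described further on, and Reg3b held it. The 2 matches are shown with 10 flanking bases on each side, 5′ to 3′ on the strand of the gene, and the capitals mark the motif. They lie at chr11:117969502-117969530 (minus strand, 154 bases before the start of Socs3) and chr6:78370746-78370774 (plus strand, 129 bases before the start of Reg3b).
Socs3: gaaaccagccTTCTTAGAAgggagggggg
Reg3b: agcctgttctTTCTTGGAAactctttgag
A match of these letters is a description of the sequence and not a binding site.

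Total counts per mouse ranged from 8557690 to 12648005. The Defa genes, which encode the defensins of Paneth cells, took 35.7% to 51.0% of them, with the lowest share in control replicate 1. Levels are therefore given as normalised CPM, counts per 1000000 of the library size after TMM scaling, and TMM factors ranged from 0.719 to 1.57, the highest again in control replicate 1. All 10 Paneth cell markers looked up were present, at a summed 466000 to 574000 CPM in control and 526000 to 612000 CPM in zinc deficient mice, or 297000 to 613000 and 481000 to 852000 normalised CPM. None of these 10 passed the test between diets, but all 10 had a log2 fold change above 0 (median 0.445). By edgeR, 3 had an unadjusted p under 0.05, and Ang4 (0.99) and Mptx2 (1.45) did not overlap between diets. Of all 10911 genes tested, 4.43% had such a p with the higher mean in zinc deficient mice. Diets did not overlap in that direction for 2.3%. Markers of other cells were lower. Goblet cell genes summed to up to 12200 CPM, with Spink4 the highest at a mean of 6130 CPM. Enteroendocrine genes reached 4900 CPM, of which 4880 CPM were Reg4 alone, and enterocyte genes 499 CPM. Immune genes summed to at most 57.1 CPM, and 9 of the 15, including Cd3e and Csf1r, were at 0 in every mouse. Stroma and vessel genes summed to at most 0.592 CPM and erythroid genes to at most 0.761 CPM. Of the other marker lists, tuft cell genes stood at 48.3 to 82.8 CPM in control mice, but at 352 CPM in zinc deficient replicate 3 and at 14.7 to 50.0 CPM in the other zinc deficient mice. Stem and transit amplifying cell genes summed to 1360 to 2190 CPM in control and 520 to 1100 CPM in zinc deficient mice. Top2a, a topoisomerase of dividing cells, was the 1 member of 8 to pass the test, as lower, beside 0.257% of all genes. All 8 had a log2 fold change below 0 (median -0.758), 6 had an unadjusted p under 0.05 by edgeR, and 4 did not overlap. In either direction, 10.5% of all genes had such a p and 6.09% did not overlap. The part of these markers in the results that follow was not tested. In bulk samples, fewer cells of a type and less RNA per cell cannot be told apart.

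All 10 members were detected, at mean levels from 0.160 to 9.18 TPM (transcripts per 1000000, which divides counts by the summed length of the exons of a gene). Il22ra1 had the highest mean level, 9.18 ± 4.04 TPM (SD, n = 8 mice), followed by Jak1 at 5.27 ± 2.01, Stat3 at 5.08 ± 2.02 and Il10rb at 4.21 ± 1.26 TPM. Socs3 stood at 2.86 ± 1.21, Tyk2 at 1.64 ± 0.758, Il6st at 1.38 ± 0.541 and Il6ra at 0.872 ± 0.573 TPM. Fut2 at 0.361 ± 0.379 and Il18 at 0.160 ± 0.146 TPM closed the order. Of all genes with counts, 94.6% had a lower mean level than Il22ra1, 89.9% a lower one than Stat3 and 39.2% a lower one than Il18.

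Neighbours in this order were compared within each mouse by an exact two-sided sign-flip permutation test over 8 mice, with the 9 p-values adjusted together. The pairs and their direction came from the ranked means of the same 8 mice. The p-values therefore describe how steady each step was and are no independent support for the order. Il22ra1 exceeded Jak1 in 8 of 8 mice, by a ratio of 1.70 (adjusted p = 0.0234 by the exact test, from 0.00781, the smallest p that 8 mice allow). Jak1 and Stat3 (exact p = 0.523), Stat3 and Il10rb (adjusted exact p = 0.0879) and Fut2 and Il18 (adjusted exact p = 0.0804) were not separated beyond their spread. The other 5 neighbouring pairs were, each at an adjusted p of 0.0234 by the exact test. The top of the order depended on the length used. Per length of the canonical transcript, Stat3 had 9.70, Jak1 8.74 and Il22ra1 7.93 TPM, so that Il22ra1 was the lowest of these 3.

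**Figure D1:**
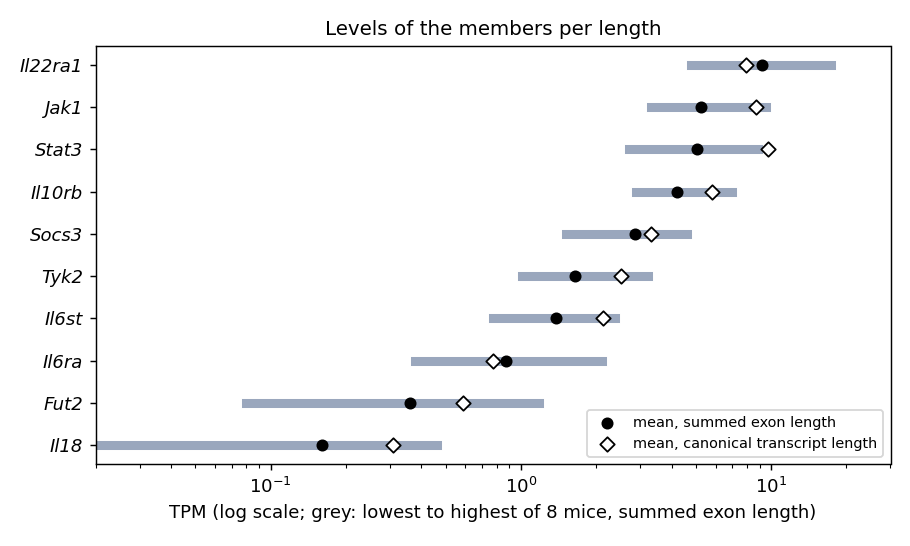
Level of each member in TPM, on a log scale, over all 8 mice of both diets. Black points give the mean with summed exon length, the grey bars run from the lowest to the highest mouse, open diamonds give the mean with canonical transcript length, and the bar of Il18 reaches the left edge because 1 mouse is at 0. Il22ra1 is at the top at 9.18 TPM with summed exon length, while the diamonds put Stat3 above it at 9.70 TPM.

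Between diets, none of the 9 members that could be tested passed an adjusted p of 0.05 (edgeR quasi-likelihood test, adjusted over 10911 genes), where 44 of all genes tested did (0.403%), 16 of them higher (0.147%) and 28 lower (0.257%) in zinc deficient mice. Lower calls were no longer the majority without zinc deficient replicate 2 (9 of 13 higher), replicate 3 (27 of 36) or replicate 4 (12 of 17), without control replicate 1 (17 of 33), replicate 2 (5 of 8) or replicate 4 (5 of 8), or without the robust fit (14 of 25). At an unadjusted p under 0.05 there were 2 members, Stat3 and Socs3, both with the higher mean in zinc deficient mice, beside 1142 of 10911 genes (10.5%), 483 of them with the higher mean in zinc deficient mice (4.43%). DESeq2 called no member either. The log2 fold change was above 0 for 7 and below 0 for 2 members, with a median of 0.08 beside -0.005 for all genes tested. No member had diets that did not overlap, which 664 genes (6.09%) had.

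The ligands came close to the limit of detection in these cells. Il22 and Il6, which encode the cytokines that engage the receptors described here, had 0 counts in all 8 mice, which allows up to 3 counts a mouse, or 0.237 to 0.351 CPM. Of the 14 ligands looked up, 7 were at 0 in every mouse, and 11, these 7 included, had at most 3 counts in any mouse. Ctf1, the cytokine cardiotrophin-1, was the only ligand that could be tested, at 3.13 ± 0.458 normalised CPM in control and 3.07 ± 0.593 in zinc deficient mice (log2 fold change -0.03, adjusted p = 0.987). Lif, leukemia inhibitory factor, had 118 counts in all mice together, Clcf1 had 9 and Il10 had 7.

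The 4 receptor genes among the members were all expressed. Il22ra1 (ENSMUSG00000037157, chromosome 4, 135455428 to 135479451 of GRCm39, plus strand) encodes the chain that makes a cell responsive to IL-22. It was at 30.2, 30.3, 24.8 and 22.3 normalised CPM in the control mice and at 29.0, 34.9, 31.8 and 18.6 in the zinc deficient mice. The zinc deficient mice held both the highest and the lowest value, and the diets overlapped. The log2 fold change was 0.08 (standard error 0.18, 95% confidence interval -0.30 to 0.46, adjusted p = 0.927).

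Il10rb (ENSMUSG00000022969, chromosome 16, 91203012 to 91224600, plus strand), whose product also serves the receptors of IL-10 and interferon lambda, had 28.2, 27.0, 26.3 and 33.5 normalised CPM in control mice. In zinc deficient mice it had 35.3, 33.6, 30.1 and 31.2. Each zinc deficient mouse lay above the control mean of 28.8 ± 3.22, but control replicate 4 lay above 2 of them. The log2 fold change of 0.18 (standard error 0.14, interval -0.12 to 0.47) had an adjusted p of 0.722 by edgeR.

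Il6st (ENSMUSG00000021756, chromosome 13, 112600604 to 112646620, plus strand), the gene of GP130, had 24.3, 30.7, 22.1 and 22.0 normalised CPM in control and 23.0, 22.9, 26.0 and 26.4 in zinc deficient mice. The single high value was that of control replicate 2. Its log2 fold change was -0.015 (standard error 0.15, interval -0.34 to 0.31, adjusted p = 0.985). Il6ra (ENSMUSG00000027947, chromosome 3, 89771366 to 89820719, minus strand), the chain that binds IL-6, was the lowest of the 4 receptor genes. It had 12.4, 11.1, 9.46 and 4.98 normalised CPM in control and 8.74, 7.96, 7.98 and 4.96 in zinc deficient mice. All 4 zinc deficient mice lay below the control mean of 9.46 ± 3.22, and replicate 4 was the lowest of each diet. The log2 fold change was -0.37 (standard error 0.26, interval -0.91 to 0.17, adjusted p = 0.676).

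Other receptor chains of these cytokines were sparse. Of 9 looked up, 4 (Il22ra2, Il10ra, Il20ra and Il27ra) had no count in any mouse, which includes the decoy receptor of IL-22 and the chain that pairs with Il10rb for IL-10. The 2 that could be tested did not pass. Il11ra1, the IL-11 receptor, stood at 8.55 ± 1.55 in control and 10.3 ± 0.913 normalised CPM in zinc deficient mice (adjusted p = 0.679), and Lifr, the receptor of LIF, at 3.14 ± 0.489 and 2.88 ± 0.515 (adjusted p = 0.927). Osmr, the oncostatin M receptor, had 9 counts in all mice together and Il20rb had 35.

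**Figure D2:**
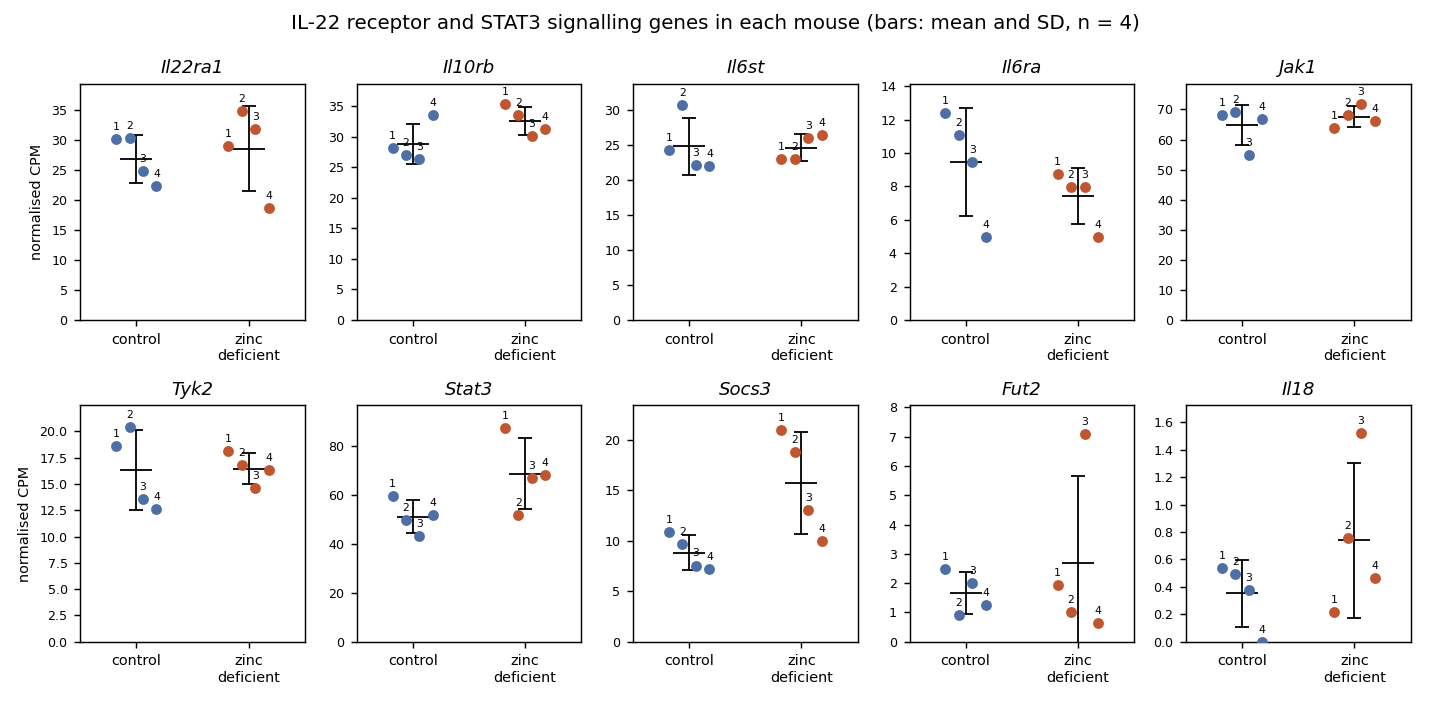
Normalised CPM of the 10 members in each mouse (vertical axes from 0), with control mice in blue, zinc deficient mice in orange, replicate numbers above the points and bars for the mean and SD (n = 4). Socs3 and Stat3 have their highest values in zinc deficient replicate 1, at 21.0 and 87.1, while Fut2 and Il18 have 1 high point each, zinc deficient replicate 3.

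Neither gene of the receptor kinases passed the test between diets. Jak1 (ENSMUSG00000028530, chromosome 4, 101008838 to 101122487, minus strand) was at 68.1, 69.3, 54.8 and 66.9 normalised CPM in control and at 63.7, 68.3, 71.9 and 66.3 in zinc deficient mice. Except for control replicate 3, all mice lay between 63.7 and 71.9. The log2 fold change was 0.06 (standard error 0.13, interval -0.22 to 0.34, adjusted p = 0.926).

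Tyk2 (ENSMUSG00000032175, chromosome 9, 21015363 to 21042689, minus strand) had 18.6, 20.4, 13.6 and 12.6 normalised CPM in control and 18.1, 16.8, 14.6 and 16.3 in zinc deficient mice. The zinc deficient mice lay within the range of the control mice. The means were 16.3 ± 3.78 and 16.4 ± 1.46, with a log2 fold change of 0.003 (standard error 0.18, interval -0.38 to 0.38, adjusted p = 0.998). Without TMM scaling, the fold changes of Il22ra1, Il10rb, Jak1 and Tyk2 were below 0, and so was the median of all genes tested, at -0.37.

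Stat3 (ENSMUSG00000004040, chromosome 11, 100775924 to 100830450, minus strand), the transcription factor on which these receptors converge, had 59.3, 49.8, 43.1 and 51.8 normalised CPM in the control mice. In the zinc deficient mice it had 87.1, 51.9, 67.0 and 68.1. All 4 zinc deficient mice lay above the control mean of 51.0 ± 6.67 and averaged 68.5 ± 14.4, but replicate 2 at 51.9 lay below control replicate 1 at 59.3. The mean was 1.34-fold that of the control mice (95% confidence interval 1.06 to 1.69, log2 fold change 0.42, standard error 0.16), beside a median log2 fold change of 0.445 for the 10 Paneth cell markers, whose part in it was not tested. The unadjusted p was 0.0166 and the adjusted p 0.334 by edgeR, which ranked Stat3 at place 542 of the 10911 genes by p. Without TMM scaling, which moved the median of all genes to -0.37, the log2 fold change was 0.055 for Stat3 and 0.40 for Socs3, described next.

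Socs3 (ENSMUSG00000053113, chromosome 11, 117856905 to 117860898, minus strand, 2 exons), the inhibitor that STAT3 induces and that blocks GP130 receptors and JAK kinases, had a log2 fold change above that of Stat3. Its counts ranged from 60 to 202 in a mouse. The control mice had 10.9, 9.67, 7.56 and 7.20 normalised CPM and the zinc deficient mice 21.0, 18.8, 13.1 and 10. Zinc deficient replicates 1, 2 and 3 lay above every control mouse, and replicate 4 at 10 fell between control replicates 2 and 1. The fold was 1.76 (95% confidence interval 1.26 to 2.45, log2 fold change 0.81, standard error 0.23), with an unadjusted p of 0.00236 and an adjusted p of 0.154 by edgeR. With no filter on low counts, the adjusted p of Socs3 by edgeR was 0.0132 (range over 16 alternatives 0.0132 to 0.484). In that setting 251 genes passed in place of 44, out of a larger number tested. Without control replicate 1, the library with the lowest Defa share, the log2 fold change was 0.93 for Socs3 (adjusted p = 0.135) and 0.505 for Stat3 (adjusted p = 0.287).

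**Figure D3:**
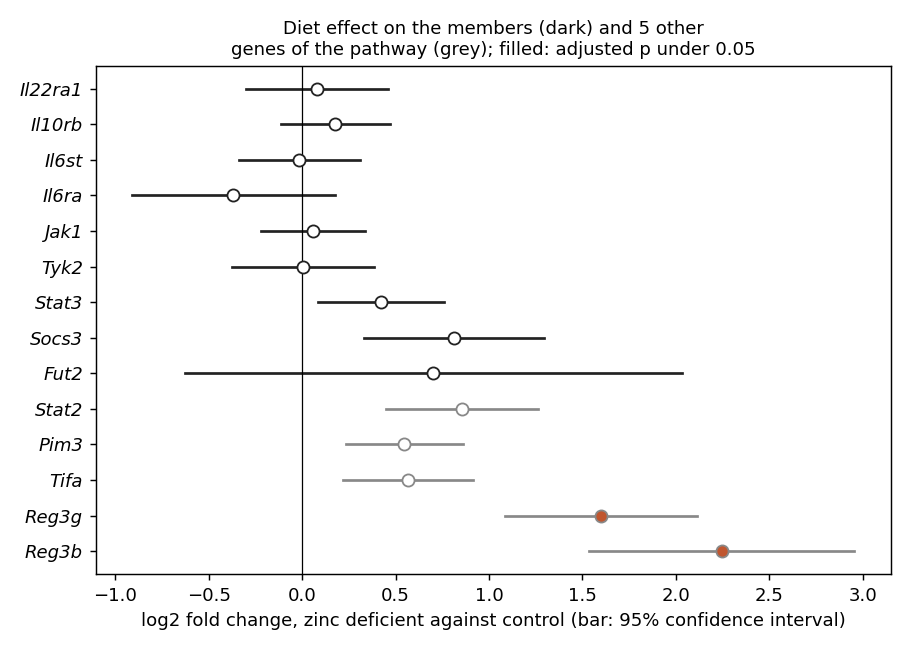
Log2 fold change of zinc deficient against control mice with its 95% confidence interval, for the 9 tested members (dark) and 5 other genes of the pathway (grey), which were chosen after their values were seen. Filled points passed an adjusted p of 0.05, and the intervals of Stat3 and Socs3 lie above 0 although neither passed.

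Stat3 and Socs3 were also set against the genes upstream of them in the same library, which needs no library scaling. Per 100 counts of Il22ra1, Il10rb, Il6st, Jak1 and Tyk2 together, Stat3 had 35.0, 28.0, 30.4 and 32.9 counts in control mice and 51.5, 29.4, 38.4 and 42.9 in zinc deficient mice. The means were 31.6 ± 3.03 and 40.6 ± 9.20, and 3 of the 4 zinc deficient mice lay above all control mice. Socs3 had 6.43, 5.44, 5.34 and 4.58 counts in control and 12.4, 10.7, 7.50 and 6.30 in zinc deficient mice. Here too 3 zinc deficient mice lay above all control mice, with replicate 4 at 6.30 just under control replicate 1 at 6.43. Per 100 counts of Stat3, Socs3 had 13.9 to 19.4 counts in control mice, and 24.2, 36.3, 19.5 and 14.7 in zinc deficient mice, so that this ratio overlapped in replicate 4.

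**Figure D4:**
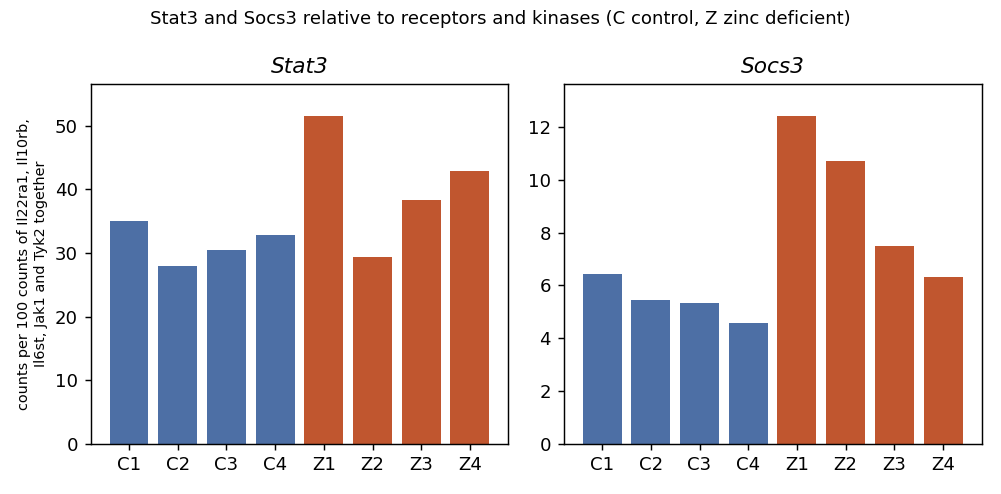
Counts of Stat3 and of Socs3 per 100 counts of Il22ra1, Il10rb, Il6st, Jak1 and Tyk2 together, 1 bar for each mouse (C control, Z zinc deficient, axes from 0). For both genes 3 of 4 zinc deficient bars exceed every control bar, with Z2 at 29.4 for Stat3 and Z4 at 6.30 for Socs3 as the exceptions.

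The 8 other JAK and STAT genes gave 7 that could be tested, none of which passed, with a median log2 fold change of 0.15. Stat2, the STAT of type I and III interferon signalling, came closest. It had 11.4, 10.4, 7.82 and 8.58 normalised CPM in control and 22.7, 14.7, 14.9 and 17.7 in zinc deficient mice. The diets did not overlap, which held with TMM scaling and not with total counts as library size, and the log2 fold change was 0.86 (standard error 0.19, adjusted p = 0.062). It passed with the DESeq2 test (adjusted p = 0.00924), with no filter on low counts (0.00437) and with the replicate number as a block (0.0397), in a range of 0.00437 to 0.42 over 16 alternatives. Stat6 at 34.1 ± 6.52 and 33.6 ± 4.88, Jak2 at 23.0 ± 4.45 and 26.3 ± 3.19 and Stat5b at 10.1 ± 2.20 and 8.94 ± 1.37 normalised CPM had adjusted p-values of 0.761 or more.

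Of 15 other inhibitors of the pathway (SOCS, PIAS and phosphatase genes), 14 could be tested and none passed, with log2 fold changes from -0.52 to 0.53 and a median of -0.06. The log2 fold change was below 0 for 12 of the 14, beside a median of -0.005 for all genes tested. Some of these values were close to 0, such as -0.027 for Ptpn11 and -0.045 for Ptpn1. None of the 14 had an unadjusted p under 0.05 by edgeR. Socs2, best known as an inhibitor of growth hormone signalling, had the lowest p of the 4 most abundant, at 29.1 ± 3.53 in control and 24.0 ± 3.83 normalised CPM in zinc deficient mice (log2 fold change -0.28, adjusted p = 0.572). Socs7 stood at 23.4 ± 4.74 and 19.5 ± 4.02. The phosphatase genes Ptpn11 (34.8 ± 6.60 and 34.3 ± 4.17) and Ptpn1 (15.7 ± 2.43 and 15.3 ± 1.95) had adjusted p-values of 0.973 and 0.959.

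Known targets of STAT3, a list drawn up with earlier results of these data known, gave the only genes of the pathway to pass the test. They were 2 of 21 tested out of 30 looked up, beside 44 of 10911 genes tested (0.403%), 16 of which were higher (0.147%). Both targets were higher in zinc deficient mice, and both encode secreted lectins that kill or bind bacteria. Reg3g rose from 737 ± 133 to 2230 ± 608 normalised CPM (log2 fold change 1.60, adjusted p = 0.0071) and Reg3b from 135 ± 42.3 to 640 ± 270 (2.25, adjusted p = 0.0174), without overlap. Their order among zinc deficient mice was not that of Socs3. Replicate 4, the lowest for Socs3, was the highest for both, at 2910 and 878 normalised CPM, while replicate 3 was the lowest at 1480 and 316. Among cell markers, replicate 4 was also the highest for Ang4 (39500), Mptx2 (29900) and Muc2 (2430 normalised CPM). For Defa24 it was replicate 2 (350000 normalised CPM). The 10 Paneth cell markers had a median log2 fold change of 0.445. The part of these markers in the values of Reg3g and Reg3b was not tested. Reg3b no longer passed without control replicate 1 (log2 fold change 2.06, adjusted p = 0.0727), control replicate 4 (2.34, 0.0598) or zinc deficient replicate 4 (2.06, 0.0531).

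The other 19 targets did not pass, and the median log2 fold change of the 21 was 0.008, with 11 above and 10 below 0. Diets did not overlap for 4 of the 21, Reg3g, Reg3b, Pim3 and Tifa, each time with the zinc deficient mice higher, beside 251 of all genes tested (2.3%). With total counts as library size, Reg3g and Reg3b still did not overlap, and Pim3 and Tifa did. Pim3, a serine/threonine kinase gene, stood at 75.1 ± 10 in control and 110 ± 15.0 normalised CPM in zinc deficient mice (log2 fold change 0.55, adjusted p = 0.134). Tifa, an adaptor of innate sensing of bacterial sugars, had 53.6, 53.5, 49.4 and 57.6 in control and 100, 92.4, 67.0 and 57.8 in zinc deficient mice, which ranked as they did for Socs3 (log2 fold change 0.57, adjusted p = 0.184). At an unadjusted p under 0.05 by edgeR, 5 of the 21 had the higher mean in zinc deficient mice. Of all genes tested, 4.43% did so, and 10.5% had such a p in either direction. The 5 were Reg3g, Reg3b, Pim3, Tifa and Junb (log2 fold change 0.45, adjusted p = 0.418), and the diets overlapped for Junb. In the other direction, 3 targets had an unadjusted p under 0.05, with diets that overlapped. They were Birc5, a survival and cell division gene (log2 fold change -0.825, adjusted p = 0.251), Ccnd1, which encodes cyclin D1 (-0.58, adjusted p = 0.337), and Duox2, an epithelial oxidase gene (-0.62, adjusted p = 0.357). The stem and transit amplifying cell markers had a median log2 fold change of -0.758, and their part in these values was not tested.

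**Figure D5:**
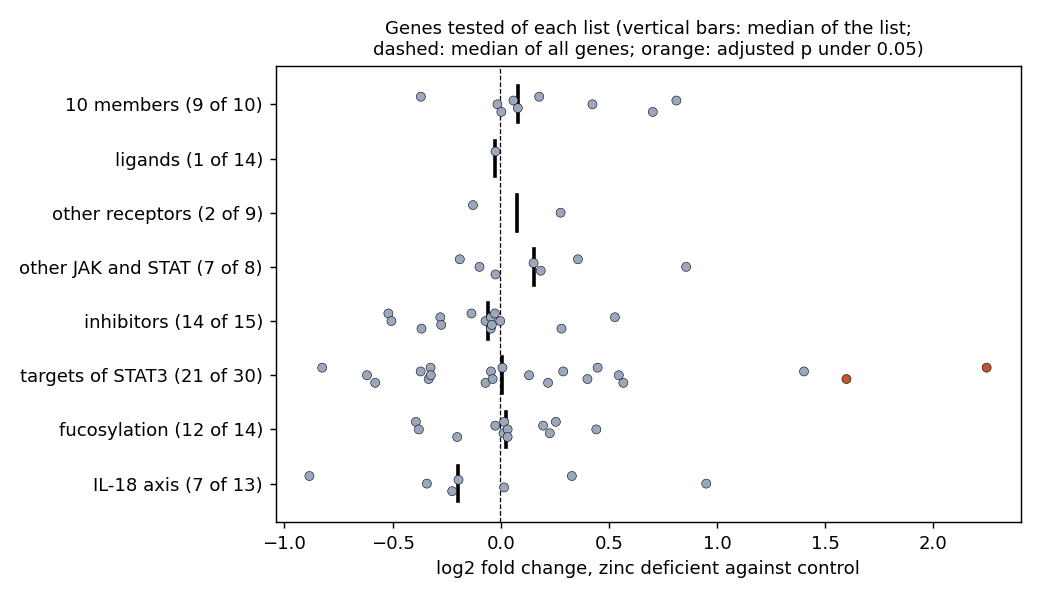
Log2 fold change of zinc deficient against control mice for every tested gene of the 10 members and the 7 lists around them, with the number tested of the number in each list. Vertical bars mark the median of each list, the dashed line the median of all genes tested (-0.005), and the 2 orange points are Reg3g and Reg3b, the only genes with an adjusted p under 0.05.

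Fut2 (ENSMUSG00000055978, chromosome 7, 45298015 to 45315818, minus strand), the fucosyltransferase that adds terminal fucose to epithelial glycans, was near the limit of what could be counted. Its 207 counts were spread as 46, 11, 16 and 12 in control and 18, 8, 89 and 7 in zinc deficient mice. These are 2.48, 0.902, 2.02 and 1.27, and 1.94, 1.01, 7.10 and 0.655 normalised CPM. The high value was that of zinc deficient replicate 3, which was also the mouse with 352 CPM of tuft cell markers. That mouse was also the highest for Fabp1 of enterocytes (25.6 CPM) and Fcgbp of goblet cells (921 CPM). Its summed enterocyte and goblet lists, at 473 and 9900 CPM, lay within the control ranges of 344 to 499 and 7370 to 10500 CPM. The part of these markers in the Fut2 value was not tested. The log2 fold change of 0.70 (standard error 0.62, interval -0.63 to 2.03, adjusted p = 0.761) turned to -0.48 without that mouse.

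Of 14 other genes of fucosylation looked up, 12 were tested and none passed, while Sec1 and Fut10 had 3 and 4 counts in all, with a median log2 fold change of 0.02. Gmds and Gfus, which make the donor GDP-fucose, stood at 131 ± 14.5 and 178 ± 55.5 (adjusted p = 0.417) and at 101 ± 16.7 and 116 ± 8.71 normalised CPM (adjusted p = 0.707) in control and zinc deficient mice. The fucosyltransferase genes Fut4 (90.6 ± 8.13 and 91.5 ± 6.77) and Fut8 (82.4 ± 3.14 and 96.6 ± 15.4) were the most abundant of their kind on the list, with adjusted p-values of 0.984 and 0.626.

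Il18 (ENSMUSG00000039217, chromosome 9, 50466081 to 50493633, plus strand), a cytokine released by epithelial cells after cleavage by caspase-1, did not pass the filter on low counts and was not tested. It had 10, 6, 3 and 0 counts in control and 2, 6, 19 and 5 in zinc deficient mice, 51 in all. In 3 mice it had 3 counts or fewer, and the highest count was again zinc deficient replicate 3.

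Of 13 genes that activate, bind or accompany IL-18, 7 were tested and none passed, with a median log2 fold change of -0.195. Nlrp6, an inflammasome sensor known for its role in intestinal mucus and microbial defence, had 30.3, 35.1, 23.4 and 25.4 normalised CPM in control and 20.9, 12.1, 12.2 and 16.8 in zinc deficient mice. The diets did not overlap, with all zinc deficient mice lower, on either library size, and the log2 fold change was -0.88 (standard error 0.19, adjusted p = 0.0513). It passed with the DESeq2 test (adjusted p = 0.012), with no filter (0.000297), with the replicate block (0.0335) and without zinc deficient replicate 1 (0.0318), in a range of 0.000297 to 0.279. Nlrc4, the sensor of bacterial flagellin and secretion systems, did not overlap in the other direction, although it did with total counts as library size (41.9 ± 3.54 and 52.7 ± 5.33, log2 fold change 0.33, adjusted p = 0.386). The adaptor gene Pycard (35.4 ± 7.14 and 30.8 ± 5.75) and the protease gene Casp1 (9.54 ± 1.06 and 8.17 ± 2.94) had adjusted p-values of 0.762 and 0.812.

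Over the 10759 tested genes whose mean reached 1 CPM, the pattern of Stat3 over the 8 mice was most like that of Thsd7a, with a mean absolute difference of 0.08 between centred log2(CPM + 1) values, followed by Parp9 (0.08) and D330050I16Rik (0.09). For Socs3 the nearest were Tifa (0.16), Dusp1 (0.16) and Nupr1 (0.165). Tifa stayed among the 3 genes nearest to Socs3 with pseudocounts of 0.5 and 5 and with TMM scaling, under each of which 3 of these 6 genes remained. Library depth and scaling are shared by all genes of a mouse and contribute to this likeness.

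Some members overlap other genes on the opposite strand, and whether strand was used in counting was not stated in the sources at hand. Stat5a, which overlaps Stat3, had 226 counts in all mice and a mean of 2.59 CPM, beside 61.2 CPM for Stat3. Raver2, which overlaps Jak1, had 95 counts and a mean of 1.13 CPM. The genes overlapping Il6ra and Tyk2 had 10 and 13 counts.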

How the data were processed

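Small intestinal Paneth cells of 4 control and 4 zinc deficient mice were analysed. The table the authors deposited holds raw read counts, whole numbers for each Ensembl identifier. The submitters' processing notes name FastQC 0.12.0, STAR 2.7.0a, DESeq2 and the build mm39. Counting program, strand setting and annotation are each not given in the sources used here. Libraries were stranded and selected mRNA, which biases them to polyadenylated transcripts. Columns were matched to samples by diet and replicate number. The labels call the samples replicates, and p-values measure the spread between them.

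Identifiers were looked up in GENCODE M39 on GRCm39, where 54749 of 55414 were found. Where 74 symbols were shared, the identifier with the most counts was used. Fut10 and Fut11 were looked up as Pofut3 and Pofut4. Libraries of 1 diet differed by a chi-square per degree of freedom of 5.43 to 55.1, so none was counted as a duplicate. A count of 0 allows up to 3 counts, and intervals on it cover counting error only.

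The diet comparison was fitted in R 4.3.3 by edgeR 4.0.16 (expression filter, 10911 genes kept, TMM, robust quasi-likelihood test, two-sided, Benjamini-Hochberg adjustment, threshold 0.05). The step was tested on simulated data. As alternatives, the size factors and the test of DESeq2 1.42.0 were run. Levels between genes were compared as TPM, and likeness as the mean absolute difference of log2(CPM + 1) values centred on each gene, with a pseudocount of 1. Sign-flip tests and tables were made in Python 3.11.15 (pandas 2.3.3, scipy 1.17.1, numpy 2.4.6) and figures in matplotlib 3.10.9. Promoter sequences came from RefSeq on GRCm38.p6.

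The genes named are the 10 members, Il22 and Il6, every called gene and the 4 with the highest mean CPM in each of 7 lists of 103 genes around the pathway, and the 3 genes most like Stat3 and the 3 most like Socs3. Markers are given as sums, and the highest gene of a list and the genes at 0 are named for some lists only. Stem cell marker Top2a is named as the called gene of its list. Overlapping genes, receptor chains at 0, Ang4, Mptx2, Muc2, Fabp1, Fcgbp, Junb, Birc5, Ccnd1, Duox2, Sec1, Fut10, Reg3a and Saa1 are named outside this rule, after their values were seen. Members and lists were chosen with earlier results of these data known. Alternatives cover scaling, filter, test, robust fit, pseudocount, transcript length, a block by replicate number and leaving out single mice.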

Additional observations from a re-analysis of the deposited data

Results flagged for a closer look

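The values of each of the 10 members in each diet, 20 groups of 4 mice, were checked for a mouse far from the others. Jak1 in control replicate 3, at 54.8 normalised CPM, was set apart from the other control mice, with a gap to the nearest of them of 0.837 of the range of the group, just above the limit of Dixon's test. By chance, about 1 group in 20 is set apart in this way. Without that mouse the log2 fold change of Jak1 between diets was -0.009, in place of 0.06.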

How the results depend on the processing

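Across 16 alternatives, Stat3 and Socs3 kept the higher mean in zinc deficient mice, with log2 fold changes from 0.055 to 0.54 and from 0.40 to 0.98, both lowest without TMM scaling. Stat3 passed in none (adjusted p from 0.188 to 0.910), and Socs3 passed with no filter (1 member called, adjusted p = 0.0132). With each mouse left out in turn they ranged from 0.29 to 0.54 and from 0.64 to 0.98. Genes called numbered 11 with library size only (5 higher, 6 lower), 134 with the DESeq2 test (61 and 73), 251 with no filter (107 and 144), 25 without the robust fit (11 lower) and 8 to 36 with 1 mouse left out (5 to 27 higher, 3 to 20 lower), with 8 when control replicate 2 or 4 was left out, and 26, 13 or 17 when zinc deficient replicate 1, 2 or 4 was. The cause was not tested. Of the 7 lists, 7 genes were called with the DESeq2 test (Stat2, Reg3a, Reg3b, Reg3g, Saa1, Pim3 and Nlrp6), 7 with no filter (Tifa in place of Pim3) and 1 to 3 with 1 mouse left out. Nlrp6 was added without zinc deficient replicate 1 (adjusted p = 0.0318). The main fit tested 64 of the 103 list genes and called 2, beside 0.403% of all genes. Reg3a and Saa1 were not tested there. Numbers tested with the DESeq2 test and with no filter are not given here, so their calls stand without a share of all genes.

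With the replicate number as a block, 53 genes were called, 36 of them shared with the 44, and 4 of the lists, Stat2 (adjusted p = 0.0397) and Nlrp6 (0.0335) beside Reg3g and Reg3b. Deviations of samples with the same number correlated at 0.03 to 0.09, and 3 of 4 control mice correlated best with their own number. The labels state no pairing, and these values do not settle whether the numbers pair the mice. The block gave Socs3 an adjusted p of 0.0557.

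Values near 0 changed sign. With library size only, which moves the median of all genes by -0.37, the log2 fold change was -0.31 for Il22ra1, -0.18 for Il10rb, -0.31 for Jak1 and -0.40 for Tyk2. For Il6st it was 0.005 with DESeq2 size factors and 0.008 with the DESeq2 test. With each mouse left out it ran from -0.026 to 0.24 for Il22ra1, from -0.065 to 0.11 for Il6st, from -0.009 to 0.10 for Jak1, from -0.10 to 0.13 for Tyk2 and from -0.48 to 1.03 for Fut2. The members kept their order of level with any mouse left out, and 8 of 10 kept their rank by canonical length. Of the 6 genes most like Stat3 and Socs3, 3 were shared under each alternative. Il18, with 0 to 19 counts a mouse, was too low to test.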
